A study of Mus musculus with 2 samples.

Results

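The 29 genes described here are listed as genes that make cholesterol, control its synthesis or bring it into the cell. They were taken by a list of names whose rule uses no measured value, though earlier results of these data were known when it was drawn up, and all 29 were found among the 19357 genes in the count matrices of this single-cell RNA sequencing study of the mouse aorta. By role they fell into 8 genes of the mevalonate steps, 12 genes of the squalene and sterol steps, 5 genes of the SREBP control system and 4 genes of sterol uptake and transport. The question was how these genes differed between the aortae of control and diabetic mice, in which cell classes and at which steps of the pathway.

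All mice were male, of the C57BL/6 strain and of genotype Apoe -/-, so that both groups lacked apolipoprotein E, a ligand of several lipoprotein receptors, and the controls were no healthy reference for lipid handling. Diabetic mice had received streptozotocin, a toxin of the insulin-producing beta cells, at 55 mg/kg body weight per day by intraperitoneal injection for 5 days from the age of 6 weeks, and control mice the citrate vehicle. They were followed for 10 weeks and are labelled as 17 weeks old. The aortic cells of 4 mice per group were pooled, sorted as viable and metabolically active, and made into 1 droplet library, read from the 3′ ends of transcripts. With 1 library per group there was no spread between mice to set a difference against, so no test was made. Intervals given here are 95% intervals that cover counting error only, and a difference cannot be told apart from one between the 2 pools or libraries.

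Cholesterol is built from acetyl-CoA through mevalonate and isoprenoid diphosphates to squalene, which is closed into lanosterol and trimmed to cholesterol on the endoplasmic reticulum. The transcription factors encoded by Srebf1 and Srebf2 are held in that membrane by Scap and the Insig proteins while sterol is plentiful, and reach the nucleus to switch on synthesis and uptake genes when it is scarce. Vascular smooth muscle cells, fibroblasts, endothelial cells and macrophages of the artery wall can each take up lipoproteins, and cells that take up much cholesterol usually turn their own synthesis down.

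Transcripts were counted as unique molecular identifiers (UMIs, each standing for 1 captured molecule), of which there were 15314749 over 4215 barcodes for control and 17647604 over 3458 barcodes for diabetic mice. The authors' deposited annotation put 3060 and 2524 of these barcodes in 13 cell classes, and 8 annotated barcode sequences occurred in both libraries. Haemoglobin genes took 20.3% of all UMIs in the diabetic library and 1.57% in the control library, but 1.14% and 0.217% over the annotated cells. The 7 classes with at least 50 cells in both libraries were used for comparison. Named as deposited, these were VSMCs-1 and VSMCs-2 (8 smooth muscle markers at a summed 39938 to 58072 CPM, where CPM is a gene's UMIs divided by all UMIs of the class and scaled to 1000000), Fib-1, Fib-2 and Fib-3 (8 fibroblast markers at 23914 to 42958 CPM), ECs (8 endothelial markers at 6547 to 7021 CPM) and Mac (8 macrophage markers at 25475 to 40695 CPM). The smooth muscle markers summed to at most 1719 CPM in the other 5 of these classes.

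A gene's ratio is its CPM in the diabetic over that in the control library within a class. A gene with at least 10 UMIs over both libraries was called higher or lower where the ratio was at least 1.5-fold and its interval excluded 1. In VSMCs-2 all 29 genes passed the 10 UMI minimum. Of these, 12 were called higher in the diabetic library and 0 lower, where 4.33% of the 11498 genes measured in that class were called higher and 4.08% lower.

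The promoters of 3 of these 12 genes are shown because sterol and NF-Y elements there are how SREBP is known to act. RefSeq promoter windows of 300 bases (250 before and 50 after the transcription start, build GRCm38.p6) were found for 23 of the 29 genes, and none was matched for Acat1, Fdps, Fdft1, Sqle, Stard4 and Scarb1. The 250 bases before the start are printed for the 3 matched genes whose ratios in VSMCs-2 had the lower bounds farthest above 1. They are Idi1, the isomerase of isopentenyl diphosphate (chr13:8885356-8885605, plus strand), Hmgcs1, the cytosolic HMG-CoA synthase (chr13:119690101-119690350, plus strand) and Msmo1, a sterol methyl oxidase (chr8:64733579-64733828, minus strand). Capitals mark each CCAAT box, the letters bound by NF-Y, a factor that works beside SREBP, and each classical sterol regulatory element, TCACNCCAC, read on either strand. On the other strand CCAAT reads as ATTGG.
Idi1: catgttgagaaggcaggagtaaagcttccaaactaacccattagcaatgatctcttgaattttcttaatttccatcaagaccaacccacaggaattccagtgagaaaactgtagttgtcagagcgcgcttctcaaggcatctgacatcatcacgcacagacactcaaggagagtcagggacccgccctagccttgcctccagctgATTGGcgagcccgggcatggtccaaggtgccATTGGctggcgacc
Hmgcs1: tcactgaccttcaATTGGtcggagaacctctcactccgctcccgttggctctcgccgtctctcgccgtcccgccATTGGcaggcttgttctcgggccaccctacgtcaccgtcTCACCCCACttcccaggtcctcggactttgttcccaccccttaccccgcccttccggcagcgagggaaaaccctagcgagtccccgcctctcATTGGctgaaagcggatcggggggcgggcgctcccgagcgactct
Msmo1: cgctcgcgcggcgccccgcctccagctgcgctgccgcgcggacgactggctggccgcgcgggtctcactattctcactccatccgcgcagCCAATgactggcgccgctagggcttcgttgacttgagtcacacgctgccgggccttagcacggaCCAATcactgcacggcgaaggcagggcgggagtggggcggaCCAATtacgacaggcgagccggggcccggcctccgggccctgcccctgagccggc

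Idi1 carried 2 CCAAT boxes and Msmo1 carried 3 in these bases. The Hmgcs1 window held the element TCACNCCAC, starting 137 bases before the transcription start, and 4 CCAAT boxes, 3 of them in the printed bases. CCAAT on either strand occurred in the windows of 20 of the 23 matched genes, among them all 10 matched genes that were called higher in VSMCs-2. It occurred in 37.4% of all 32851 promoter windows and for 43.1% of the 8948 matched genes measured in VSMCs-2. The GC box GGGCGG occurred for 22 of 23 genes, where 70.3% of the measured genes and 35.7% of all windows held it. The element TCACNCCAC was found for Hmgcs1 alone, 1 of 23 genes, against 1.45% of the measured genes and 1.24% of all windows. The E-box form TCACNTGA, also bound by SREBP, was found for Insig2 alone, against 4.91% of the measured genes and 4.18% of all windows. Only these exact letters were searched, so elements that differ from them were not counted. Of the 13 matched genes that were not called, 10 held CCAAT too. TCACNCCAC and TCACNTGA begin with the same letters, no marked matches overlapped in the printed bases, and a match is a description, not a bound site.

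In VSMCs-2, 5 of the 8 mevalonate genes were called higher in the diabetic library. The 8 genes together stood at 335.6 CPM for control and 440.0 CPM for diabetic mice, a ratio of 1.31 (1.22 to 1.41). Fdps, farnesyl diphosphate synthase, which stands where the sterol and the other isoprenoid branches part, had 196 UMIs (70.4 CPM) in control and 660 UMIs (115 CPM) in diabetic cells, a ratio of 1.64 (1.40 to 1.93). Hmgcs1 had 137 UMIs (49.2 CPM) and 436 UMIs (76.2 CPM), a ratio of 1.55 (1.28 to 1.89). These were the called genes with the most UMIs and hence the narrowest intervals. Pmvk, phosphomevalonate kinase, had 98 and 313 UMIs (35.2 and 54.7 CPM), a ratio of 1.55 (1.24 to 1.97). Mvk, mevalonate kinase, had 37 and 130 UMIs (13.3 and 22.7 CPM), a ratio of 1.71 (1.18 to 2.54). Idi1 had 41 and 153 UMIs (14.7 and 26.8 CPM), a ratio of 1.82 (1.28 to 2.63). The called genes thus lay between the making of HMG-CoA and of farnesyl diphosphate. The 2 listed thiolases were not called. Acat1, the mitochondrial thiolase of ketone body and isoleucine breakdown, had a ratio of 0.908 (0.798 to 1.03). Acat2, the cytosolic thiolase, had a ratio of 1.11 (0.789 to 1.58). Mvd, mevalonate diphosphate decarboxylase, had 11 and 31 UMIs and a ratio of 1.37 (0.671 to 3.02), an interval too wide to place it.

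The squalene and sterol steps summed to 187 CPM for control and 252 CPM for diabetic VSMCs-2, a ratio of 1.34 (1.22 to 1.49), and 6 of 12 genes were called higher. Sqle, squalene epoxidase, an oxygen-using enzyme that helps set the flux into sterols, had 39 UMIs (14.0 CPM) in control and 177 UMIs (31.0 CPM) in diabetic cells, a ratio of 2.21 (1.55 to 3.21). Its lower bound was the only one of the 29 above 1.5. Cyp51, the lanosterol demethylase, had 53 and 178 UMIs (19.0 and 31.1 CPM), a ratio of 1.63 (1.20 to 2.27). The 3 enzymes that act in turn to remove the paired methyl groups from the sterol ring were all called. Msmo1 had 85 and 282 UMIs (30.5 and 49.3 CPM), a ratio of 1.61 (1.26 to 2.08). Nsdhl, a sterol dehydrogenase, had 22 and 87 UMIs (7.90 and 15.2 CPM), a ratio of 1.92 (1.19 to 3.23). Hsd17b7, a keto-reductase, had 7 and 38 UMIs (2.51 and 6.64 CPM), and its ratio of 2.64 (1.17 to 7.01) was the highest in the class and the least precise. Sc5d, a sterol desaturase, had 37 and 123 UMIs (13.3 and 21.5 CPM), a ratio of 1.62 (1.11 to 2.40).

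The 6 sterol-step genes that were not called had ratios from 0.811 to 1.26, and each interval included 1. Fdft1, squalene synthase, which stands just before Sqle, had 68 and 150 UMIs and a ratio of 1.07 (0.801 to 1.45), and Lss, lanosterol synthase, which stands just after it, had 17 and 44 UMIs and a ratio of 1.26 (0.705 to 2.35). The reductases Tm7sf2 and Lbr, of which Lbr is also a protein of the inner nuclear membrane, had ratios of 1.18 (0.582 to 2.53) and 0.878 (0.644 to 1.20). Ebp, a sterol isomerase, had 100 and 187 UMIs and a ratio of 0.910 (0.710 to 1.17). Dhcr7, which carries out a last reduction to cholesterol, had 15 and 25 UMIs and a ratio of 0.811 (0.411 to 1.65). For Fdft1, Lbr and Ebp the upper bounds lie below the 1.5-fold threshold, while for Lss, Tm7sf2 and Dhcr7 the depth could not show a difference of that size.

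Of the SREBP control genes 1 of 5 was called in VSMCs-2, and together they stood at 175 and 208 CPM, a ratio of 1.19 (1.07 to 1.33). Srebf1 was called, at 57 and 177 UMIs (20.5 and 31.0 CPM) and a ratio of 1.51 (1.12 to 2.07), just inside the 1.5-fold threshold. Srebf2, whose product chiefly drives the cholesterol genes, had 131 and 334 UMIs (47.1 and 58.4 CPM) and a ratio of 1.24 (1.01 to 1.53), an interval above 1 but a size below the threshold. Scap had a ratio of 1.28 (0.822 to 2.03). The retention factor Insig1, itself a target of SREBP, had 21 and 55 UMIs and a ratio of 1.27 (0.759 to 2.22), and Insig2 had 248 and 550 UMIs and a ratio of 1.08 (0.927 to 1.26).

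None of the 4 uptake and transport genes was called in VSMCs-2. Their sum was 228 CPM for control and 242 CPM for diabetic mice, a ratio of 1.06 (0.964 to 1.17). Lrp1, a large endocytic receptor of lipoprotein remnants, made up most of it, with 461 and 1074 UMIs (166 and 188 CPM) and a ratio of 1.13 (1.02 to 1.27). Vldlr, a receptor of triglyceride-rich lipoproteins, had 147 and 255 UMIs (52.8 and 44.6 CPM) and a ratio of 0.844 (0.687 to 1.04). Scarb1, the receptor of high density lipoprotein, had 19 and 27 UMIs and a ratio of 0.692 (0.371 to 1.32). Stard4, a soluble carrier of sterol, had 9 and 28 UMIs and a ratio of 1.51 (0.695 to 3.65). The intervals of both large-count receptors lie inside the 1.5-fold limits, so a change of that size in either would have been seen at this depth, counting error alone considered.

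**Figure D1:**
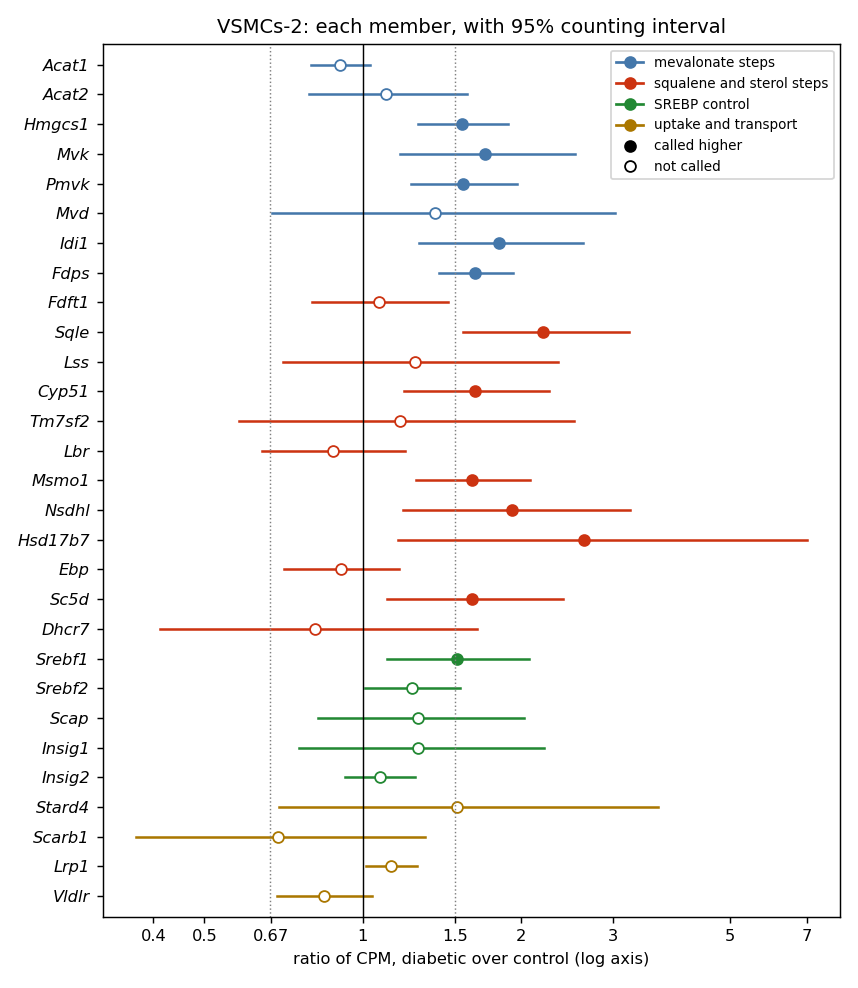
Ratio of CPM in VSMCs-2, diabetic over control library, for each of the 29 genes in order of role, on a log axis, with 95% counting intervals as lines. Filled points are the 12 genes called higher, open points the 17 not called, and dotted lines stand at 1.5-fold in either direction.

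Over all 29 genes the summed level in VSMCs-2 was 926 CPM for control and 1142 CPM for diabetic mice, a ratio of 1.23 (1.18 to 1.29). The median log2 ratio was 0.35 over the 29 genes and 0.01 over all genes measured in the class, and 23 of the 29 ratios were above 1. The calls did not rest on single cells. In the diabetic library the cell with most UMIs held at most 4.58% of those of Hmgcs1, Mvk, Pmvk, Idi1, Fdps, Sqle, Cyp51, Msmo1, Nsdhl, Sc5d or Srebf1 and 7.89% of those of Hsd17b7. After each cell was thinned to 1000 UMIs, which left out no cell of the class, 57.3% (52.8 to 61.7) of 496 control cells and 65.2% (61.9 to 68.4) of 856 diabetic cells had a UMI of any of the 29 genes. Cells with 3 or more such UMIs were 5.04% of control and 11.6% of diabetic cells. Without thinning, the shares with any UMI were 98.4% and 99.6%. At 1000 UMIs, Fdps was detected in 6.05% (4.12 to 8.52) and 9.70% (7.80 to 11.9) of cells and Hmgcs1 in 3.83% (2.32 to 5.92) and 6.43% (4.88 to 8.28). The intervals overlapped for both genes, but overlap is no test of the difference between the libraries, and none was made. No class could serve as one that lacks these widely used enzymes. Unthinned, Fdps was detected in 27.4% and 41.2% of cells and Hmgcs1 in 23.8% and 33.1%, at median depths of 5547 and 6523 UMIs per cell.

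Markers listed for other cell types also moved in VSMCs-2. The 5 pericyte markers, all detected in both libraries, summed to 1218 CPM for control and 2270 CPM for diabetic mice, a ratio of 1.86 (1.79 to 1.94). Most cells of the class carried them, with no such UMI in only 60 of 496 control and 38 of 856 diabetic cells. In VSMCs-1 the same 5 genes summed to 2653 CPM for control and 2566 CPM for diabetic mice. The 8 macrophage markers, all detected in both, went from 180 to 39.0 CPM, the 8 fibroblast markers, all detected in both, from 2040 to 1210 CPM, and the smooth muscle markers from 58072 to 57101 CPM. Of the 7 adipocyte markers 6 were in the matrices. They had 4 UMIs in control cells, with Plin1, Cfd and Ucp1 at 0, and 135 UMIs in diabetic cells. Haemoglobin genes took 0.0116% of UMIs in control and 1.15% in diabetic cells of the class. Mitochondrial genes took 4.73% and 5.57% of UMIs. Without the 9 diabetic cells with over 0.5% haemoglobin UMIs the count stayed at 12 and the summed ratio was 1.25 (1.19 to 1.30). Without cells with a macrophage or adipocyte marker UMI, 8 genes were called and the summed ratio was 1.25 (1.17 to 1.34). This setting kept unequal shares of the libraries, 196 of 496 control and 653 of 856 diabetic cells. Without cells with a pericyte marker UMI, which left 60 control and 38 diabetic cells, 1 gene was called. The summed ratio was then 1.15 (0.957 to 1.39), an interval that includes 1. This setting left out most cells of the class, so it is no removal of pericytes alone. The part of the pericyte markers in the result was not tested.

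The count of 12 was lower under choices that thin the data or raise the threshold. It was 4 with every cell thinned to 1000 UMIs, 6 in cells below the median depth, and 2, Sqle and Hsd17b7, at a threshold of 2-fold.

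Outside the 29 genes, 6 other lists of lipid genes were read in VSMCs-2, and 8 of their genes were called, where 4.33% of all genes measured in the class were called higher and 4.08% lower. Single calls in lists of about 10 genes are near that share. Of 14 measured genes of fatty acid synthesis, the other SREBP program, 3 were called higher and 0 lower, with a median log2 ratio of 0.26. Fads1, a desaturase of polyunsaturated fatty acids, had 47 and 206 UMIs and a ratio of 2.13 (1.55 to 2.99). Scd2, a stearoyl-CoA desaturase, had a ratio of 1.76 (1.40 to 2.23), and Me1, the malic enzyme that supplies NADPH, 1.51 (1.16 to 1.98). The summed ratio of the list was 1.28 (1.18 to 1.39). Of 10 measured genes of sterol efflux and its LXR regulators, 1 was called, lower. This was Abca1, the cholesterol exporter, with 23 and 18 UMIs and a ratio of 0.381 (0.194 to 0.738). Of 9 genes of sterol trafficking and storage, 1 was called lower, Soat1, which esterifies cholesterol for storage, at 0.592 (0.375 to 0.941). Of 9 genes that process SREBP or degrade sterol enzymes, 1 was called higher, the ubiquitin ligase Rnf139, at 1.76 (1.14 to 2.77). Of 11 genes of the isoprenoid side branches, 1 was called lower, the farnesyltransferase subunit Fntb, at 0.487 (0.265 to 0.895), and of 8 measured genes among other lipoprotein receptors, Stab1, a scavenger receptor of macrophages and endothelium, was called lower at 0.412 (0.167 to 0.996). The summed ratios of these last 5 lists ran from 0.959 to 1.00, and each interval included 1.

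In each of the other 6 classes, between 0 and 2 of the 29 genes were called higher. Depth differed between classes, with 2783387 and 5718684 UMIs in control and diabetic VSMCs-2 and 323757 and 436147 UMIs in VSMCs-1. Fewer of the 29 genes passed the minimum in each of the other 6 classes. The part of depth in the counts of calls was not tested. In VSMCs-1, the smaller class with smooth muscle markers (134 and 159 cells), 21 genes passed the minimum, 2 were called higher and 1 lower, where 2.54% of all genes were called higher and 3.77% lower. Fdps had 23 and 58 UMIs (71.0 and 133 CPM), a ratio of 1.87 (1.14 to 3.18), close to its value in VSMCs-2. Srebf2 had 10 and 32 UMIs, a ratio of 2.38 (1.14 to 5.42). Insig1 fell from 9 to 3 UMIs, a ratio of 0.247 (0.0431 to 0.991). The summed ratio was 1.11 (0.962 to 1.27). It did not separate from that of VSMCs-2, with a ratio of the 2 ratios of 1.11 (0.964 to 1.29), so that the smaller class could be shown neither to follow nor to depart from the larger. Adipocyte markers stood at 942 CPM for control and 592 CPM for diabetic mice in VSMCs-1, with Ucp1 at 0 in control, and haemoglobin genes took 1.89% and 3.70% of its UMIs. The part of these in the values of the class was not tested. Single genes were compared only where called in VSMCs-2, so they had been picked for a high ratio there. The ratio in VSMCs-2 exceeded that in VSMCs-1 for Hmgcs1, by 1.80 (1.02 to 3.18), and Msmo1, by 2.07 (1.05 to 4.05). For the others compared the interval included 1. The factor was above 1 for Mvk, Pmvk, Idi1, Sqle and Nsdhl. It was below 1 for Fdps, Cyp51 and Srebf1, at 0.876, 0.551 and 0.599.

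The fibroblast classes had 0 to 2 calls each. In Fib-2, the largest of them (907 and 533 cells), 28 genes passed the minimum, 2 were called higher and 0 lower, against 5.19% and 3.69% of all genes. Pmvk had 31 and 58 UMIs (8.53 and 27.4 CPM), a ratio of 3.22 (2.05 to 5.15), which was above its ratio in VSMCs-2. Fdft1 had 27 and 29 UMIs, a ratio of 1.85 (1.06 to 3.24). The summed ratio was 1.01 (0.964 to 1.06), and of the 12 genes called in VSMCs-2 only Pmvk was called there. The other 11 had ratios from 0.840 (0.473 to 1.45), for Cyp51, to 1.65 (0.916 to 2.98), for Hsd17b7, each with an interval that included 1. In Fib-1, 18 genes passed, 0 were called higher and 1 lower, against 2.76% and 3.92% of all genes. This was Srebf2, with 20 and 4 UMIs and a ratio of 0.314 (0.0780 to 0.937), against the direction seen in VSMCs-1. In Fib-3, 19 genes passed and 0 were called either way, against 3.53% higher and 4.39% lower. The summed ratios were 0.944 (0.834 to 1.07) in Fib-1 and 1.03 (0.921 to 1.14) in Fib-3.

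In endothelial cells (ECs, 366 and 228 cells) the sterol steps had a summed ratio below 1. These 12 genes stood at 263 CPM for control and 198 CPM for diabetic mice, a ratio of 0.751 (0.618 to 0.911), although no single one of them was called. Ebp had 108 and 59 UMIs and a ratio of 0.699, a size short of 1.5-fold, with an upper bound of 0.969. Ebp and Lbr were detected in 89 and 77 of 366 control cells, and each other sterol-step gene in 28 or fewer. Of 23 genes that passed, 2 were called higher and 0 lower, against 4.11% and 3.24% of all genes. Mvk had 8 and 19 UMIs, a ratio of 3.04 (1.27 to 8.03), and Scarb1, which carries lipoprotein cholesterol into and across endothelium, had 29 and 42 UMIs (26.5 and 49.2 CPM), a ratio of 1.85 (1.13 to 3.09). The 6 adipocyte markers measured went from 3 to 97 UMIs in this class, with Adipoq, Plin1, Cidec and Ucp1 at 0 in control and none at 0 in diabetic cells, and their part was not tested. Outside the 29 genes, the fatty acid transporter Cd36 was called higher in ECs, with 86 and 130 UMIs and a ratio of 1.94 (1.46 to 2.57). In the other lists of lipid genes Nr1h3 and Gramd1b were also called higher in ECs, and Mid1ip1, Stard3 and Nus1 lower.

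In macrophages (Mac, 510 and 229 cells) 26 genes passed, 0 were called higher and 2 lower, against 8.16% and 4.54% of all genes. Both were late sterol enzymes. Ebp had 211 and 57 UMIs (80.7 and 50.5 CPM), a ratio of 0.626 (0.458 to 0.842), and Dhcr7 had 33 and 3 UMIs (12.6 and 2.66 CPM), a ratio of 0.211 (0.0406 to 0.671). The summed ratio was 0.971 (0.888 to 1.06). The macrophage markers themselves went from 40695 to 25475 CPM in this class and the T cell markers, all 6 detected, from 383 to 665 CPM. The 8 smooth muscle markers, all detected, went from 325 to 929 CPM, and the 5 NK cell markers from 322 to 115 CPM, with Ncr1 at 0 in the diabetic library. The part of these in the result was not tested.

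The members called outside VSMCs-2 are named here after their values were seen. Set side by side, the summed ratio in VSMCs-2 exceeded that in Fib-1 by 1.31 (1.15 to 1.49), in Fib-2 by 1.22 (1.14 to 1.30), in Fib-3 by 1.20 (1.07 to 1.35), in ECs by 1.38 (1.22 to 1.55) and in Mac by 1.27 (1.15 to 1.40). Of the 29 genes, Mvk, Pmvk and Fdps were called higher in 2 of the 7 classes, and Srebf2 was the only one called in both directions. Pmvk had a ratio above 1 in all 7 classes, with called values in VSMCs-2 and Fib-2, and Vldlr had a ratio below 1 in all 5 classes where it passed the minimum, with no call in any.

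**Figure D2:**
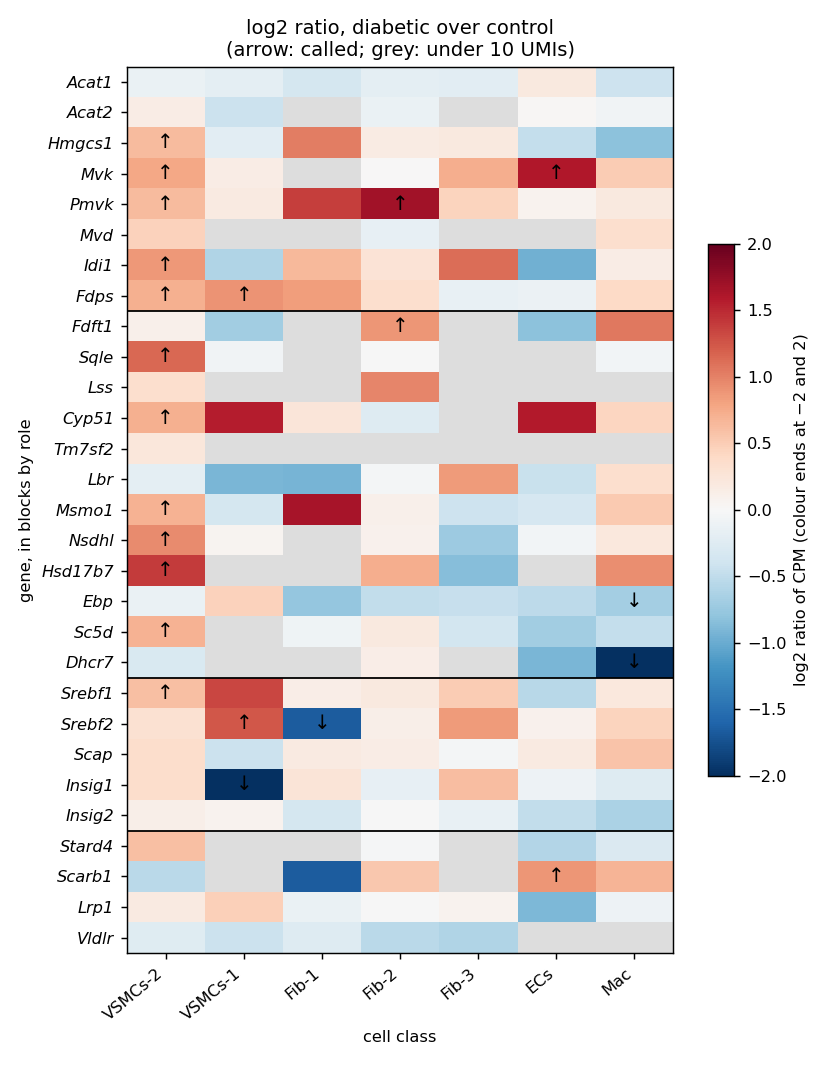
Log2 ratio of CPM, diabetic over control library, of the 29 genes (rows, in blocks by role) in the 7 classes (columns), with arrows on called values and grey where a gene had under 10 UMIs. The VSMCs-2 column holds 12 upward arrows and no downward arrow, while the other 6 columns hold between 0 and 3 arrows each. Classes differed in depth, so the number of arrows is not directly comparable between columns.

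The level of the 29 genes differed more between classes than between libraries. The summed level was 1240 to 1335 CPM in the 3 fibroblast classes, 926 to 1156 CPM in the VSMC classes, 627 to 700 CPM in ECs and 623 to 642 CPM in Mac. Among the 6 smaller immune classes it ran from 273 CPM in control B Cells (24 UMIs in 28 cells) to 1014 CPM in diabetic T cells (197 UMIs in 60 cells). Lrp1 was the largest part of the fibroblast sums. It stood at 638 to 696 CPM in the 6 fibroblast values, at 114 to 188 CPM in the VSMC classes, at 127 to 137 CPM in Mac, at 17.4 and 9.37 CPM in control and diabetic ECs, and had 0 UMIs in T cells of either library. Vldlr was found chiefly in the VSMC and fibroblast classes, at 18.4 to 57.1 CPM, and had 0 and 2 UMIs in ECs. Scarb1 was higher in ECs, at 26.5 and 49.2 CPM, than in the VSMC, fibroblast and Mac classes, at 1.39 to 19.2 CPM.

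The mevalonate steps were ordered differently from uptake. They summed to 336 and 440 CPM in VSMCs-2 and 402 and 436 CPM in VSMCs-1, above the 169 to 260 CPM of every fibroblast, endothelial and macrophage value. These sums include the mitochondrial thiolase Acat1. Over all annotated cells it was their largest single part, at 104 CPM for control and 101 CPM for diabetic mice. The order of the classes without Acat1 was not tested. Fdps alone stood at 70.4 and 115 CPM in VSMCs-2 and 71.0 and 133 CPM in VSMCs-1, and at 18.7 to 50.1 CPM in the fibroblast, EC and Mac values. The control intervals of the VSMC classes overlapped for the mevalonate steps, and the order of these 2 classes was not tested. The classes were separated less by the sterol steps, with sums of 151 to 263 CPM over all 14 values, of which the highest was control ECs and the next diabetic VSMCs-2. In control ECs, Ebp was detected in 89 and Lbr in 77 of 366 cells. Each other sterol-step gene was detected there in 28 cells or fewer, and Sqle and Lss in 0.

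**Figure D3:**
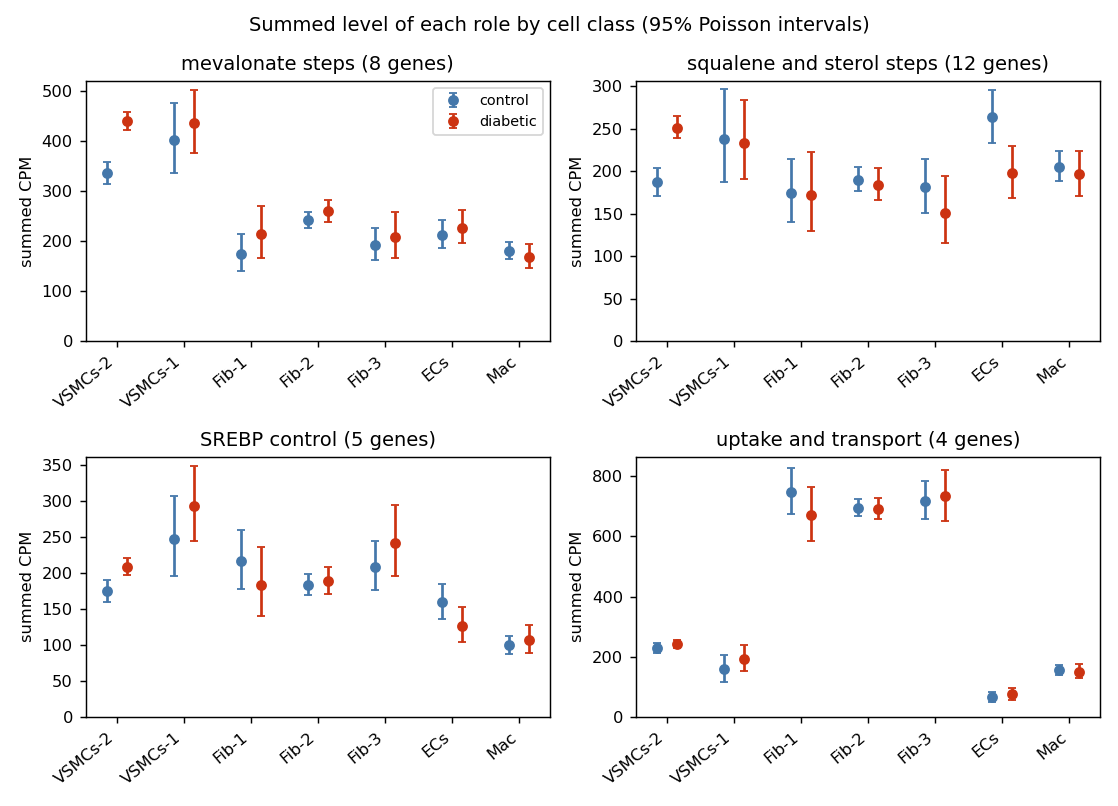
Summed CPM of each role by class (columns) in the control (blue) and diabetic (red) library, with 95% Poisson intervals, each panel with its own linear axis from 0. The mevalonate panel shows the VSMC classes above the others, and the uptake panel shows the 3 fibroblast classes above the others.

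With all annotated cells pooled, as in a tissue extract, 10 of the 29 genes were called higher and 1 lower, against 8.48% and 9.55% of the 14529 genes measured. The genes called higher were Hmgcs1, Mvk, Pmvk, Idi1, Fdps, Fdft1, Sqle, Lss, Cyp51 and Msmo1, and the gene called lower was Ebp. In this pool the mix of cells moved along with the genes: the 2 VSMC classes held 25.1% of annotated UMIs for control and 52.0% for diabetic mice, and the mevalonate steps summed to 240 CPM and 337 CPM, a ratio of 1.40 (1.34 to 1.47). The pooled ratio was therefore set beside 2 recomputed values, one with the class shares of the diabetic and the class levels of the control library, and one the other way round. For Fdps the pooled ratio was 2.01, that from shares alone 1.30 and that from levels alone 1.44. For Sqle these were 2.57, 1.37 and 1.64, and for Hmgcs1 1.69, 1.25 and 1.21. Both recomputed values lay above 1 for each of the 10 genes called higher.

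For other genes the pooled ratio and the values within classes differed. Lrp1 had a pooled ratio of 0.809, of which shares alone gave 0.780 and levels alone 1.01. Fib-2, where Lrp1 was high, held 29.3% of annotated UMIs for control and 17.9% for diabetic mice. Fdft1, called in the pool at 1.63 (1.31 to 2.04) but not in VSMCs-2, had 1.46 from shares and 1.23 from levels. Conversely, Nsdhl, Hsd17b7, Sc5d and Srebf1, called in VSMCs-2, had pooled ratios of 1.37, 1.31, 1.17 and 1.35 and were not called in the pool. Ebp had a pooled ratio of 0.648 (0.582 to 0.722), with 0.828 from shares and 0.730 from levels.

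**Figure D4:**
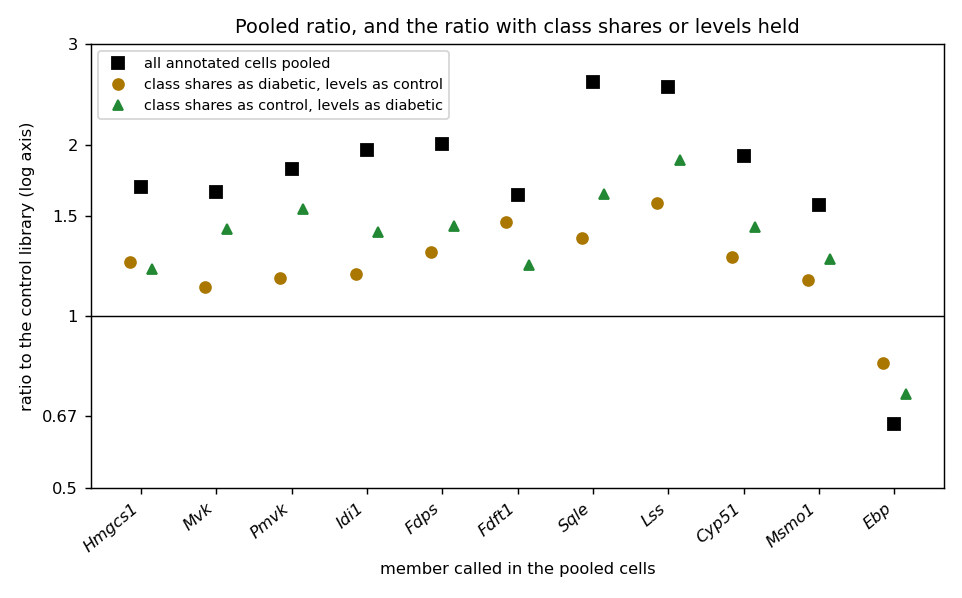
For the 11 genes called in the pooled annotated cells, the ratio of pooled CPM (squares) beside the ratio recomputed with diabetic class shares and control levels (circles) and with control class shares and diabetic levels (triangles), on a log axis. For each of the 10 genes called higher all 3 marks lie above 1, and for Ebp all 3 lie below 1.

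Some of these genes share their place in the genome with another gene. In the GENCODE annotation of GRCm38, Fdps (chromosome 3, 89093588 to 89101959, minus strand) overlaps 2 genes on its own strand, among them the protein-coding model Gm43738. Cyp51 (chromosome 5, 4081145 to 4104746, minus strand) overlaps Akap9 on the other strand, Fdft1 overlaps Ctsb on the other strand, and Tm7sf2 overlaps Vps51 on its own strand. Srebf1 (chromosome 11, 60199089 to 60222581, minus strand) overlaps Rai1 and other models, and Hmgcs1 and Idi1 each overlap 1 non-coding model on the other strand. How reads in such overlaps were counted is not given in the sources used here, so the counts of these genes are less certain. Sqle (chromosome 15, 59315077 to 59331192, plus strand), Mvk, Pmvk, Msmo1, Nsdhl, Hsd17b7 and Sc5d overlap no annotated gene.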

How the data were processed

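Single-cell RNA was measured in 1 control and 1 diabetic library, each pooled from 4 mice. The deposited matrices hold whole UMI counts per gene and barcode, and a deposited table assigns barcodes to cell classes. Cell Ranger 3.1.0, the mm10 genome and Partek are named for the authors' counts, per the submitters' processing notes. Annotation release, strand setting and barcode filter are not given in the sources used here. There were 0 columns of per-sample values.

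Counts were summed per class and library (Python 3.11.15, numpy 2.4.6, pandas 2.3.3, scipy 1.17.1, matplotlib 3.10.9). All 29 genes and the other lists were chosen with earlier results of these data known. Ratios of CPM have exact conditional binomial 95% intervals, levels exact Poisson intervals, shares Clopper-Pearson intervals, and ratios between classes log-normal intervals, all for counting error only. Ratios were computed over all genes; no p-value was made. Barcodes without a class were left out, and doublets were not called. The procedure was tested on simulated data. These were Poisson counts without spread between cells, mice or libraries, so the test covers counting error only. Full values were to be named for genes called in VSMCs-2 or in at least 2 classes, and up to 4 called genes per other list. Alternatives were edgeR 4.0.16 TMM scaling, other totals, equal cell weights, thinning, cell subsets, minimum counts of 1 or 30 and other thresholds. Those without cells carrying macrophage, adipocyte or pericyte marker UMIs were chosen after seeing the data.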

Additional observations from a re-analysis of the deposited data

Results flagged for a closer look

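The change in the summed level of the 29 genes differed between VSMCs-2 and 5 other classes, in that the counting interval of the ratio between 2 classes excluded 1. The diabetic over control ratio in VSMCs-2 was 1.31 times that in Fib-1, 1.22 times that in Fib-2, 1.20 times that in Fib-3, 1.38 times that in ECs and 1.27 times that in Mac. Single genes were compared in this way only where called in VSMCs-2, so each had been picked for a high ratio there. Most of these intervals included 1, and the comparisons whose intervals excluded it are given here. For Hmgcs1 the ratio in VSMCs-2 was 1.80 times that in VSMCs-1, 2.15 times that in ECs and 2.74 times that in Mac. For Msmo1 it was 2.07 times the ratio in VSMCs-1 and 2.03 times that in ECs. Against ECs the factor was 3.55 for Idi1, 2.63 for Sc5d and 2.23 for Srebf1. Against Fib-2 it was 2.23 for Sqle and 1.95 for Cyp51, and against Fib-3 it was 4.75 for Hsd17b7. Pmvk differed the other way, with a ratio in VSMCs-2 that was 0.483 times that in Fib-2. Srebf2 was called higher in VSMCs-1, at 2.38, and lower in Fib-1, at 0.314, on 10 and 32 and on 20 and 4 UMIs, and the difference between these 2 classes was not tested. All of these compare 1 library with 1 library.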

How the results depend on the processing

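No paired analysis was possible because each group has 1 library. In VSMCs-2 the 12 genes called higher became 4 with cells thinned to 1000 UMIs, 6 in cells below the median UMI count, 2 at a threshold of 2-fold and 1 without cells with a pericyte marker UMI. Under the other alternatives 8 to 14 were called, with 0 lower except for 1 in cells below the median. The median log2 ratio, 0.35 over all 29 genes, became 0.51 with thinning and 0.54 without the 5% of cells with most UMIs. With each gene's richest cell left out it was 0.49. Without cells with a macrophage or adipocyte marker UMI it was 0.52, and without cells with a pericyte marker UMI 0.17. These medians cover only the genes with at least 10 UMIs in the setting, so the set of genes could differ between settings. The summed ratio of 1.23 stayed between 1.23 and 1.31 except without cells with a pericyte marker UMI, where it was 1.15 and its interval included 1. That last setting, which kept 60 control and 38 diabetic cells, also turned Pmvk to 0.603 and Fdps to 0.938, both with intervals that include 1. Fewer cells or UMIs were counted under thinning and the subsets, and the cause of the other shifts was not tested. TMM scaling moved ratios by -0.12 on the log2 scale in Mac and by -0.03 to 0.03 elsewhere. With cells thinned to 2000 UMIs, 80.8% of control and 86.0% of diabetic VSMCs-2 had a UMI of the 29 genes. Depth limits the sparse genes most, and Tm7sf2 passed the minimum in VSMCs-2 alone.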

Other observations

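In the pooled annotated cells, genes that take up or export sterol were called as well, where 8.48% of all genes were called higher and 9.55% lower. Among them, 4 of 12 measured genes among other lipoprotein receptors were lower and 2 higher for diabetic mice, the lower ones including the macrophage scavenger receptor Msr1, with 223 and 84 UMIs and a ratio of 0.394 (0.303 to 0.509), and Cd36, at 114 and 50.4 CPM and a ratio of 0.442 (0.401 to 0.487). Within ECs Cd36 was called higher, as given above, and within Mac neither was called. The Mac class held 21.1% of annotated UMIs for control and 9.55% for diabetic mice, and the part of this shift was not tested. Of 11 genes of sterol efflux, Abca1, Ch25h and Cyp27a1 were lower in the pool, at 0.503, 0.425 and 0.451, and Rxrb, a partner of LXR, was higher, at 161 against 112 UMIs and a lower bound of 1.18. Abca1 was also lower in Fib-2, at 46.8 and 24.6 CPM and a ratio of 0.526 (0.378 to 0.721), as in VSMCs-2. In Mac, Cyp27a1, which oxidises cholesterol in mitochondria, was lower at 0.562 (0.372 to 0.827), and the exporter Abcg1 was higher at 1.59 (1.08 to 2.33).

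Fads1 was called higher in VSMCs-2, in Fib-1, at 3.14 (1.40 to 7.51), and in Fib-2, at 39.3 and 59.1 CPM, and so in more classes than Mvk, Pmvk or Fdps. The sums of the fatty acid synthesis list had ratios of 1.25 (1.03 to 1.52) in Fib-1 and 1.16 (1.07 to 1.26) in Fib-2, where the 29 cholesterol genes had summed ratios whose intervals included 1.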
